A study of Mus musculus with 8 samples.

Results

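This account follows 6 genes that take mouse germ cells into meiosis: Stra8, Bhmg1 (the gene of the protein MEIOSIN), Meioc, Ythdc2, Dazl and Rbm46. They were chosen by name, and all 6 were found among the 21900 protein-coding genes of the RefSeq table for GRCm38.p6, the assembly whose primary coordinates are those of mm10. For each gene, the H2A.Z peaks and differential regions that overlap a window of 1 kb on either side of a gene end, or lie in the gene span, were taken from the deposited lists. H2A.Z, a variant of histone H2A, was located by ChIP-seq, in which chromatin is immunoprecipitated and its DNA sequenced. The material was testis cells from animals of postnatal day 14. The 8 libraries were H2A.Z immunoprecipitates and inputs, with 2 replicates each, from testes labelled Control and from testes labelled Znhit1-CKO, called Znhit1-sKO in the protocol. ZNHIT1 is a subunit of the SRCAP complex, which puts H2A.Z into nucleosomes, and the series asks how it affects where H2A.Z lies. No source used here gives the alleles, the Cre driver or the make-up of the controls. The cells came from digested whole testes, so that germ cells and somatic cells are both present.

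Entry into meiosis in the mouse rests on a transcription step and an RNA step. Retinoic acid induces STRA8, which binds MEIOSIN, and the pair switches on genes of meiotic prophase. MEIOC, YTHDC2 and RBM46 act together on RNA and lower the transcripts of the mitotic programme, while DAZL binds RNA and makes germ cells able to respond to the signal. H2A.Z typically flanks the starts of genes.

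The bases just before 5 transcription starts are shown because these promoters covered every state seen at the starts. At Bhmg1 and Rbm46 all 250 bases lay in a peak of both genotypes. At Meioc all 250 lay in a control peak and 0 in a Znhit1-CKO peak. At Dazl 98 (39.2%) lay in a control peak and 0 in a Znhit1-CKO peak, and at Stra8 0 lay in a peak of either genotype. The sequences are those of RefSeq on GRCm38.p6, read 5′ to 3′ in the direction of transcription, and capitals mark matches to the motifs described after them. They lie at chr6:34920698-34920947 on the plus strand (Stra8), chr7:19118345-19118594 on the minus strand (Bhmg1), chr11:102665335-102665584 on the plus strand (Meioc), chr17:50293621-50293870 on the minus strand (Dazl) and chr3:82876484-82876733 on the minus strand (Rbm46).
Stra8: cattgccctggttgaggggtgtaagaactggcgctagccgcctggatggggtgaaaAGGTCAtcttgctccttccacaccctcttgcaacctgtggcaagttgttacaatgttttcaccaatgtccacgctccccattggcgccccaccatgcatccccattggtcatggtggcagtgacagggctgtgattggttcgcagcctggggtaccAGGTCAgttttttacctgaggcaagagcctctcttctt
Bhmg1: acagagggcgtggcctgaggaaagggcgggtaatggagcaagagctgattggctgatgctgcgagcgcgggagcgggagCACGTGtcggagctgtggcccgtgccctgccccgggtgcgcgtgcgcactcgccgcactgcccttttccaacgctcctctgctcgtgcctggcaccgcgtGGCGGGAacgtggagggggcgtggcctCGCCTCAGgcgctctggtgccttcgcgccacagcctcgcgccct
Meioc: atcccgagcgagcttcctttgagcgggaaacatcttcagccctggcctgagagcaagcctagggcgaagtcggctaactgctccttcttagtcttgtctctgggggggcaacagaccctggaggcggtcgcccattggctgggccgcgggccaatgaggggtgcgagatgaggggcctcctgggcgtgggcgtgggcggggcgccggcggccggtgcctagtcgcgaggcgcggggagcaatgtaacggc
Dazl: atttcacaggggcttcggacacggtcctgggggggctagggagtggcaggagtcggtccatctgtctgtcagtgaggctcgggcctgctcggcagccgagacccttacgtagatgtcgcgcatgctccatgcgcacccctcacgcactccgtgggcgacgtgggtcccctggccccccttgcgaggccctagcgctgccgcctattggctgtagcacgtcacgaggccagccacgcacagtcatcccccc
Rbm46: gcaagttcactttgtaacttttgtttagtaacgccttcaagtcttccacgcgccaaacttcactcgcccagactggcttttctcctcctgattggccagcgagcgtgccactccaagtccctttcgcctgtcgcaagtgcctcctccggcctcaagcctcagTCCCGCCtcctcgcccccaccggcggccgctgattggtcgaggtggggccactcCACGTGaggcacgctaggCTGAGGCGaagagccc

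The motifs were searched on both strands in the 300 bases from 250 before to 50 after each start, in all 32851 promoters of the table. They were CACGTG (an E-box), TCCCGCC (an E2F site), CNCCTCAG (a motif reported for STRA8 and MEIOSIN), AGGTCA (a half-site of retinoic acid receptors) and AACNGTT (a MYB site). Stra8 held AGGTCA at 2 places, beginning 194 and 38 bases before the start, and AGGTCA was present in 16.3% of all promoters. Bhmg1 held CACGTG 171 bases before the start, an E2F match beginning 71 bases before it, and CGCCTCAG, a match to the STRA8/MEIOSIN motif, 44 bases before it. Rbm46 held the same 3 kinds of match, beginning 34, 88 and 16 bases before its start. Over all promoters the E-box was present in 7.15%, the E2F letters in 11.3% and the STRA8/MEIOSIN letters in 7.94%. Dazl held CGCCTCAG 15 bases after its start, beyond the bases printed. The matches do not overlap one another. Meioc held none of the 5 motifs, and no promoter of the 5 held AACNGTT, which was present in 4.45% of all. The promoters of Bhmg1, Meioc, Dazl and Rbm46 were rich in CG, with 35, 28, 28 and 25 CG pairs in the 300 bases, and Stra8 had 10. The median was 13 over 17492 protein-coding genes with 1 promoter each. It was 7 over all 32851 promoters, so the motif shares are over promoters that are poorer in CG. The letters are a description and do not show binding.

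At the gene ends, the control list held 8 peaks for the 6 genes and the Znhit1-CKO list 5. Every gene had a control peak at an end, as had 67.6% of all protein-coding genes. Stra8 and Meioc had no Znhit1-CKO peak there and are called lost below, while Bhmg1, Ythdc2, Dazl and Rbm46 kept one. The lost count was therefore 2 of 6 (33.3%), against 11.5% of the 14815 protein-coding genes with a control peak at an end. The loss at Stra8 rests on a single control peak of 205 bp near its 3′ end. With peaks of at least 500 bp the lost count was 1 of 5, against 14.5% of all such genes. A differential region lay at an end of Bhmg1, Meioc and Ythdc2, 3 of 6 genes, against 62.8% of the 14815. No test was made of either count, since the members are 6 chosen genes. Each genotype has 1 deposited peak list with no score, so the values carry no replicate error, and a peak that is missing shows only that the site did not pass the authors' threshold. Since the testes hold a mixture of cells, fewer cells of a type and less H2A.Z per cell cannot be told apart.

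**Figure D1:**
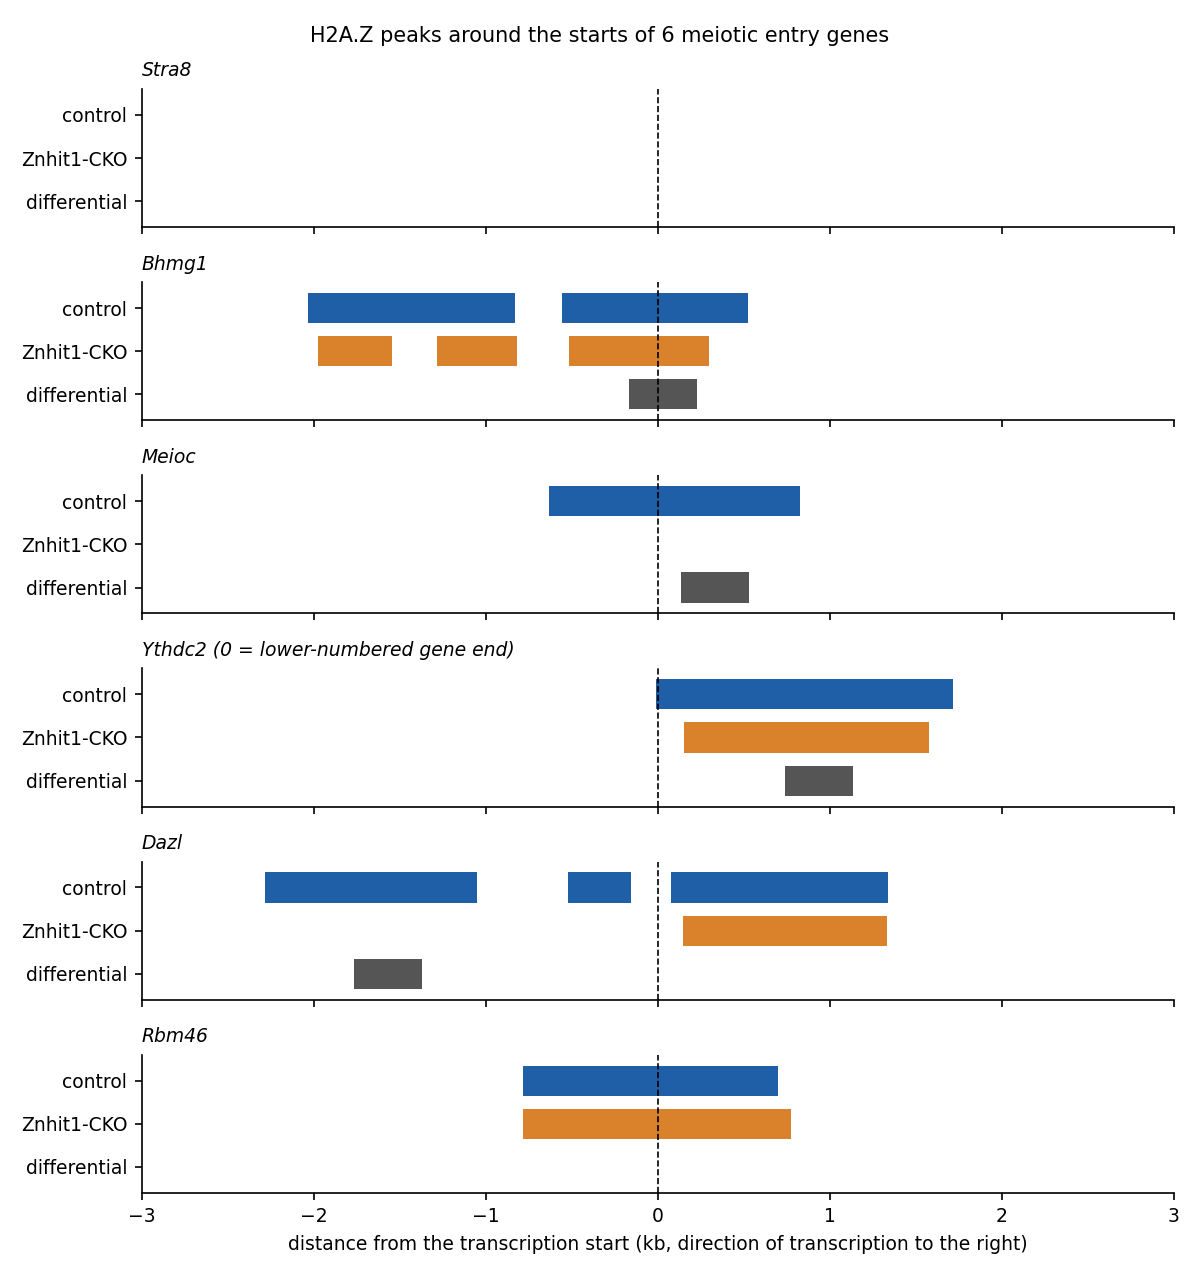
Deposited H2A.Z peaks of the control list (blue) and the Znhit1-CKO list (orange) and differential regions (grey) around the transcription starts of the 6 genes, in kb from the start with transcription to the right. For Ythdc2 the zero is the lower-numbered gene end and coordinates rise to the right. The Meioc control peak has no Znhit1-CKO peak below it, the Rbm46 peaks nearly coincide, and the Stra8 panel is empty.

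Summed over the 6 genes, the control peaks at the ends covered 8795 bp, of which 5787 bp (65.8%) lay inside a Znhit1-CKO peak. The same share over all 14815 genes was 72.1%. By gene it was 0% at Stra8 and Meioc, 72.7% at Dazl, 74.1% at Bhmg1, 82.6% at Ythdc2 and 99.8% at Rbm46. The value at Bhmg1 rests in part on narrow Znhit1-CKO peaks and was 35.6% with peaks of at least 500 bp. Those narrow peaks lie on the control peak upstream of the start, which also lies at the end of Fbxo46. The control peak over the Bhmg1 start had 75.1% of its length in a Znhit1-CKO peak of 813 bp. The median over the 6 genes was 73.4%, beside a median of 78.6% (quartiles 57.9 and 90.1%) over all genes. The spread among the 6 thus ran across nearly the whole range, with 11.0% of all genes at the value of Stra8 and Meioc and 95.5% at or under that of Rbm46.

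**Figure D2:**
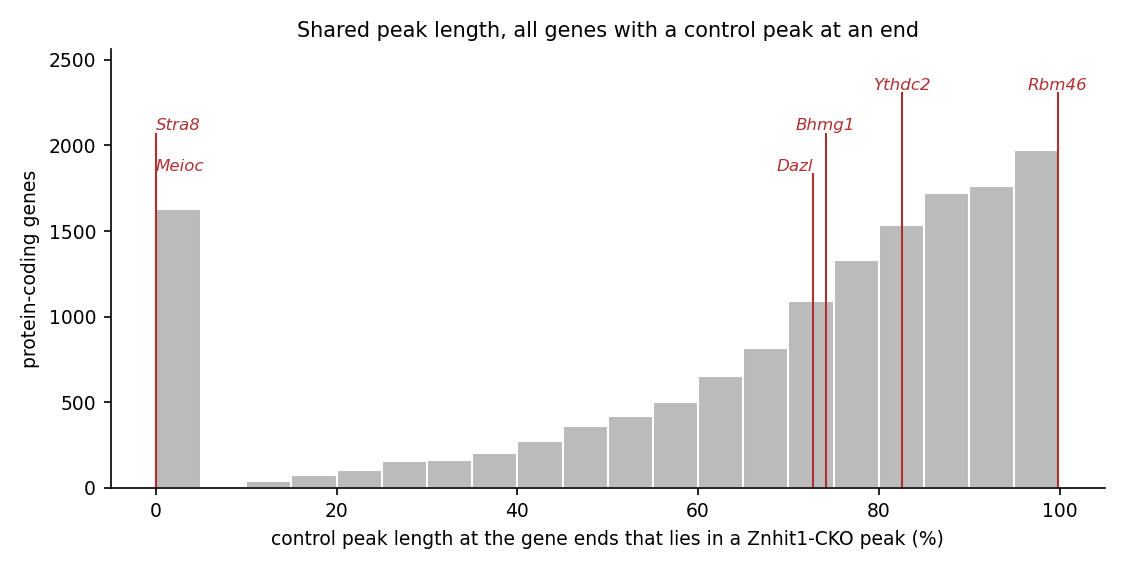
Share of each gene's control peak length at the ends that lies inside a Znhit1-CKO peak (%), as a histogram of the 14815 protein-coding genes with a control peak there (bars of 5 percentage points) and as red lines for the 6 genes. Stra8 and Meioc share the line at 0%, and Rbm46 stands at 99.8%.

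Of the pair of transcription factors, Stra8 (chromosome 6, 34920163 to 34939344, plus strand, start of transcription at 34920948) had no H2A.Z peak at its start in either genotype. Among 17492 protein-coding genes with a listed start, 67.7% had a control peak within 1 kb of it. The start lay in a stretch of 27454 bp that held no control peak. The single control peak at an end of the gene was 205 bp wide (34938895 to 34939099), inside the gene and 245 bp short of its 3′ end. This width is the narrowest in the control list, where 271 peaks have it. No Znhit1-CKO peak and no differential region lay there, so the loss at Stra8 rests on a peak of the least width and does not concern its promoter. The nearest peak before the start had a width of 1320 bp in control testes and 1289 bp in Znhit1-CKO testes. It ended 9508 bp before the start in control, lay within 1 kb of an end of Wdr91, and held a differential region. Beyond the 3′ end, control peaks of 783 and 739 bp had no Znhit1-CKO peak, and the first of them had a differential region.

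Bhmg1 (chromosome 7, 19098271 to 19118531, minus strand), whose protein is the partner of STRA8, kept a narrower peak at its start. The control peak was 1082 bp wide (19117819 to 19118900), from 556 bp before the start to 525 bp after it. The Znhit1-CKO peak was 813 bp wide (19118046 to 19118858), from 514 bp before to 298 bp after. Of the 269 bp by which it was narrower, 227 bp were on the side inside the gene and 42 bp upstream. The differential region at the start ran from 169 bp before to 230 bp after it. A control peak of 1200 bp began 832 bp upstream, and in Znhit1-CKO 2 peaks of 464 and 427 bp lay in its place, covering 73.2% of it, with no differential region. Both control peaks also lie within 1 kb of an end of Fbxo46, the neighbouring gene, so they cannot be assigned to Bhmg1 alone. They differ in place, since the peak of 1082 bp spans the Bhmg1 start and that of 1200 bp spans the Fbxo46 end at 19119859. A further control peak of 1061 bp, beginning 12818 bp upstream, overlapped a Znhit1-CKO peak of 296 bp and held a differential region. Past the other end of the gene, beyond 1 kb, a control peak of 1385 bp at the ends of Dmpk and Six5 had a Znhit1-CKO peak of 1316 bp, and one of 673 bp had none. Neither held a differential region.

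Among the genes of the RNA step, Meioc (chromosome 11, 102665351 to 102682240, plus strand) lost its whole promoter peak. The control peak was 1463 bp wide (102664950 to 102666412), from 635 bp before the start to 827 bp after it. No Znhit1-CKO peak overlapped it. The authors called a differential region on it, from 133 to 532 bp after the start. No other protein-coding gene has an end within 1 kb of this peak. Of the 7972 genes with at least as much control peak length at their ends as Meioc, 201 (2.52%) were lost, and at 131 of those 201 no Znhit1-CKO peak overlapped the control peak. Upstream of Meioc, control peaks of 846 and 610 bp, ending 5667 and 13626 bp before the start, were also without a Znhit1-CKO peak, and both held a differential region. Past the other end, at Ccdc43, the control peak had 1402 bp and the Znhit1-CKO peak 1383 bp, again with a differential region. Counting 20 kb on both sides, Meioc thus had 4 control peaks, of which 3 lacked a Znhit1-CKO peak and 4 held a differential region. In the whole series 65.5% of the 33605 control peaks away from protein-coding gene ends, as the 2 upstream ones are, lacked a Znhit1-CKO peak, against 18.0% of the 15147 at such ends, as the promoter peak is. A differential region lay on 44.0 and 59.6% of them.

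Ythdc2 (chromosome 18, 44827730 to 44889720), an RNA helicase gene, kept its peak. In control it was 1725 bp wide (44827722 to 44829446), the widest single end peak of the 6 genes, and in Znhit1-CKO 1425 bp (44827881 to 44829305). The Znhit1-CKO peak was shorter by 159 bp on the outer side and 141 bp on the inner side, so it narrowed about evenly. Its differential region lay 739 to 1138 bp inside the gene. At the end of Mcc, 14473 bp away, a control peak of 1927 bp was replaced by 2 Znhit1-CKO peaks of 540 and 434 bp that covered 50.5% of it.

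Rbm46 (chromosome 3, 82836521 to 82876512, minus strand), an RNA-binding protein gene, differed least. Its control peak was 1485 bp wide (82875783 to 82877267), from 784 bp before the start to 700 bp after it. The Znhit1-CKO peak was 1558 bp wide (82875707 to 82877264) and reached 76 bp further into the gene. No differential region lay at Rbm46 or within 20 kb of it. Among 11059 pairs of 1 control and 1 Znhit1-CKO peak at gene ends, the Znhit1-CKO peak was the wider in 16.8%. Rbm46 also held a Znhit1-CKO peak of 209 bp in its span, 32737 bp after the start, that had no control peak and no differential region. The narrowest width in the Znhit1-CKO list is 188 bp.

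Dazl (chromosome 17, 50279393 to 50293620, minus strand) is the gene of an RNA-binding protein that germ cells need before meiosis. It kept a called peak on the inner side of its start and none on the outer side. The control list held 3 peaks there. The inner one was 1264 bp wide (50292280 to 50293543), from 77 to 1340 bp after the start, and the Znhit1-CKO peak on it was 1188 bp wide (50292285 to 50293472). The start itself lay in a gap of 229 bp between the inner peak and a narrow one of 371 bp (50293773 to 50294143), which ended 153 bp upstream. The third was 1235 bp wide (50294668 to 50295902) and began 1048 bp upstream. Neither upstream peak overlapped a Znhit1-CKO peak. Of the 3, the one farthest upstream alone held a differential region. That peak is just outside the window of 1 kb, so it is not in the counts above, while the Bhmg1 peak 645 bp from the gene end is the farthest one inside it. With a window of 2 kb, 41.4% of the control peak length at Dazl lay in a Znhit1-CKO peak.

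**Figure D3:**
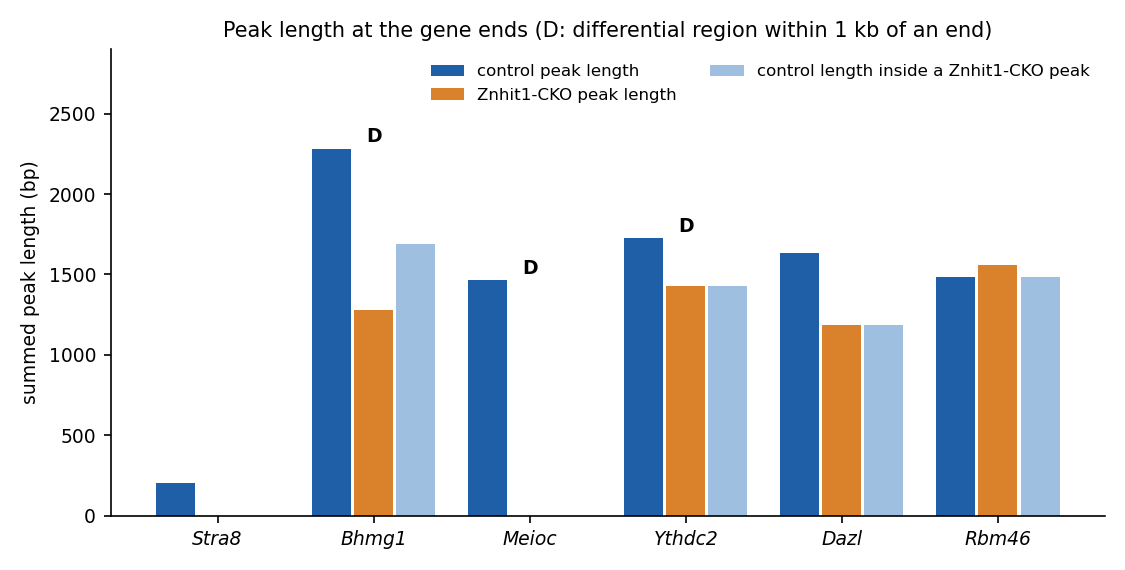
Summed length (bp) of the control peaks (blue) and Znhit1-CKO peaks (orange) at the ends of each gene, and of the control length inside any Znhit1-CKO peak (light blue), with D over genes that had a differential region there. At Bhmg1 the light bar is higher than the orange one because the Znhit1-CKO peak of 427 bp overlaps a control peak at the end but itself lies beyond 1 kb. Stra8 and Meioc have no orange bar.

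Among the 4 end peaks with a single Znhit1-CKO partner, the log2 ratio of Znhit1-CKO to control width was -0.41 at Bhmg1, -0.28 at Ythdc2, -0.09 at Dazl and 0.07 at Rbm46. The median over the 11059 pairs was -0.24 (quartiles -0.50 and -0.06). A differential region lay on the peaks of Bhmg1 and Ythdc2 and not on those of Dazl and Rbm46. Over all pairs such regions went little with narrowing: the median ratio was -0.25 with a region (6755 pairs) and -0.22 without (4304 pairs). The differential list gives no sign, so the direction of these calls is not known from it. Nearly all its regions have 1 width (24362 of 24367 are 400 bp), so they mark a place and not an extent.

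Loss varied with the length of the control peaks. With all 14815 genes put into 4 equal groups by control peak length at the ends, 35.9% were lost in the group with the shortest length (205 to 1181 bp), which holds Stra8. The share was 5.51% in the next group (1182 to 1506 bp), which holds Meioc and Rbm46. It was 2.32% in the group of Ythdc2 and Dazl and 2.51% in that of Bhmg1. In the same order, 50.6, 64.5, 67.5 and 68.7% of the genes of these groups had a differential region. The length that places Bhmg1 includes the peak of 1200 bp over the Fbxo46 end. Its start peak alone has 1082 bp, a length in the range of the shortest group.

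No control peak lay inside the span of any of the 6 genes away from the ends, while 29.8% of 19304 protein-coding genes over 2 kb had at least 1. With 20 kb added on both sides, the 6 genes had 19 control peaks and 13 Znhit1-CKO peaks. Of the 19, 9 were without a Znhit1-CKO peak and 11 held a differential region, and all 11 regions found lay on a control peak. Over the whole series 50.7% of the 48752 control peaks lacked a Znhit1-CKO peak and 48.9% held a differential region. Of the 24367 differential regions, 97.5% lay on a control peak. The 19 differ in make-up from all peaks, since most of them lie at protein-coding gene ends and most peaks of the series do not. In the series 18.0% of control peaks at such ends lacked a Znhit1-CKO peak, against 65.5% away from them. A differential region lay on 59.6 and 44.0% of them. The share of control peak length inside a Znhit1-CKO peak was 31.6% around Meioc, 41.4% around Dazl, 42.3% around Stra8, 61.2% around Bhmg1, 65.7% around Ythdc2 and 99.8% around Rbm46. Some of these peaks lie at the ends of other genes, as named above. The whole share around Stra8 comes from the peak at Wdr91, and that around Meioc from the peak at Ccdc43.

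**Figure D4:**
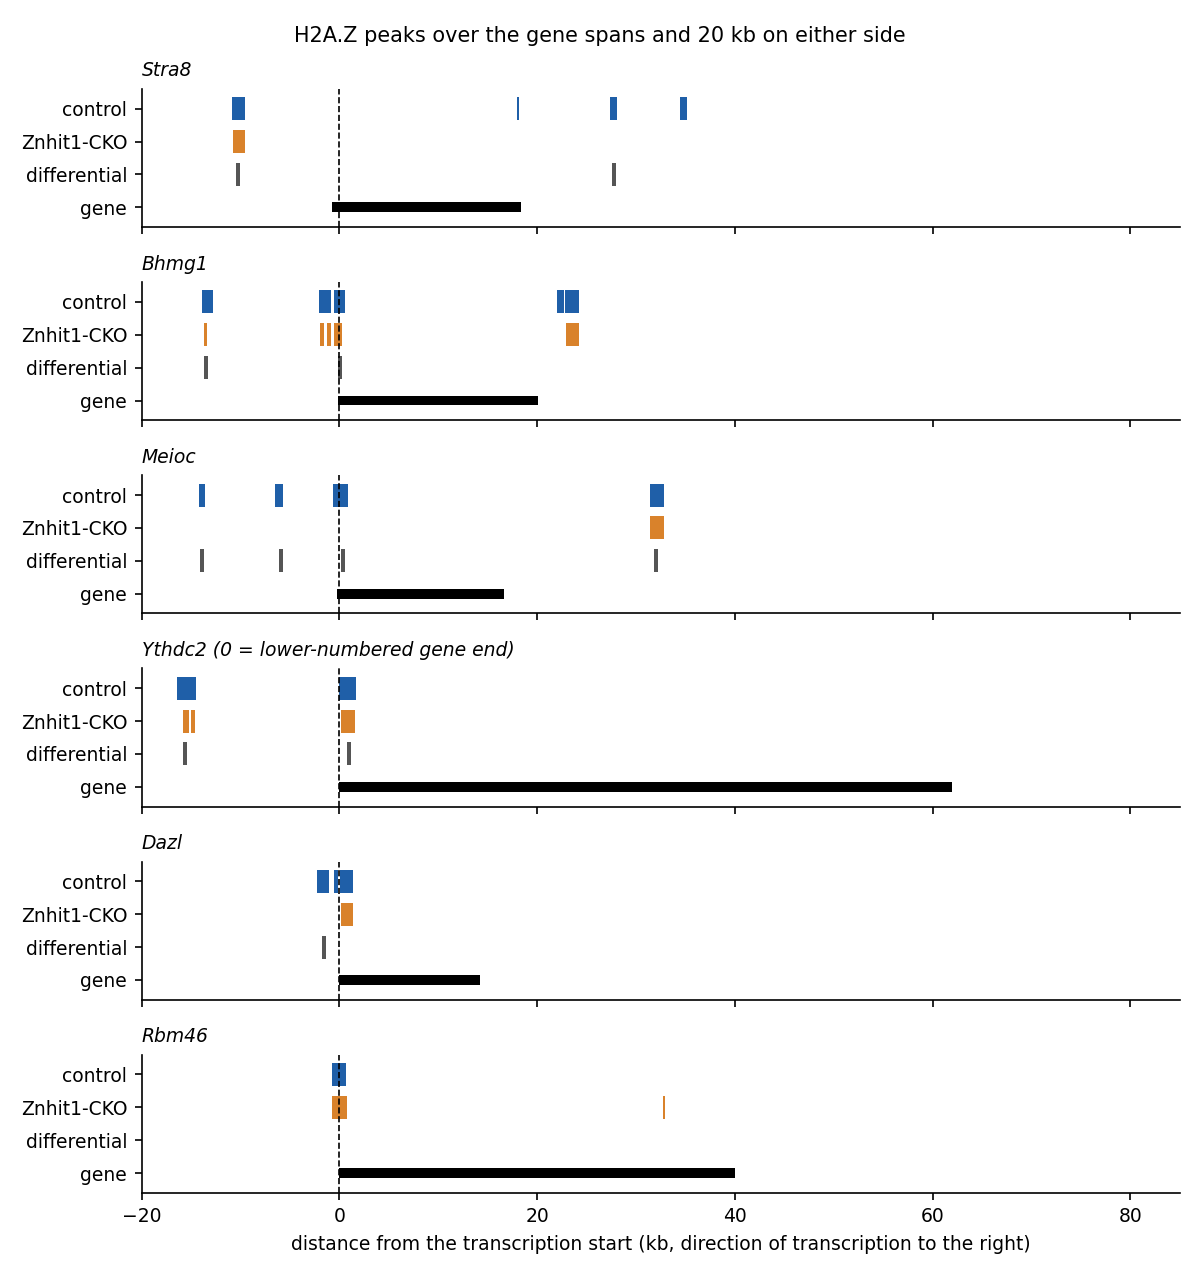
The same lists over each gene span (black bar) and 20 kb on either side, in kb from the transcription start (for Ythdc2 from the lower-numbered gene end). Control peaks lie at the ends and outside the genes, the 1 peak well inside a span is the Znhit1-CKO peak of 209 bp in Rbm46, and the Meioc panel has 4 control peaks and 1 Znhit1-CKO peak.

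Where only the 1 kb around a listed transcription start was used, Stra8 had no control peak and Ythdc2 was not included. Of the other 4 genes, Meioc alone was lost, against 9.68% of 11844 protein-coding genes with a control peak at a start. Bhmg1 and Meioc had a differential region within 1 kb of the start, against 64.2% of the 11844.

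The genes whose lengths at the ends were most like each member were found over 14274 genes, by the summed absolute difference in log2 length in the control, Znhit1-CKO and differential lists. For Meioc they were Nt5el (1462 bp in control, 0 in Znhit1-CKO) and Ghsr (1467 and 0 bp). For Bhmg1 they were Ascl4 and Thra, for Ythdc2 Etf1 and Galnt3, for Dazl Med28 and Wdfy2, and for Rbm46 Tmcc2 and Med23. Adgrf1 and Iqca1l, first by symbol among equals, had the same lengths as Stra8, 205 bp in control and 0 in the others. The likeness is over 2 genotypes with 1 list each and describes length only.

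Other genes of this step of germ cell life were described by 5 lists of 102 genes in all, none of which holds a member. Of the 92 genes with a control peak at an end, 21 (22.8%) were lost, beside the 11.5% over all genes, and 61 (66.3%) had a differential region, beside 62.8%. The lists were chosen with earlier results of these data known, so their counts are no independent evidence.

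Early prophase genes, which the STRA8 and MEIOSIN pair helps to switch on, held 11 of those 21. Of 28 with a control peak, 11 (39.3%) were lost, and 20 (71.4%) had a differential region. Of the 11, 8 had one, beside 58.6% of all 1711 lost genes. The 28 genes were shorter in control than the members, with a median of 1182.5 bp at the ends against 1560 bp. The median over all genes with a control peak at an end was 1506 bp. Ankrd31, of the double-strand break machinery, had 1244 bp in control, and Sycp2, Syce3 and Sycp1, of the synaptonemal complex, had 1099, 1051 and 1037 bp. All 4 had 0 bp in Znhit1-CKO and a differential region, as Meioc had.

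Genes of retinoic acid synthesis, breakdown, binding and receptors lost 4 of 17 (23.5%), and 11 of the 17 had a differential region. The 4 were Crabp1, which binds retinoic acid in the cytoplasm (2212 bp in control), Cyp26a1 and Cyp26c1, which break it down (806 and 553 bp), and Aldh1a1, which makes it (771 bp). A differential region lay at 3 of them and not at Aldh1a1.

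Other germ cell genes of the step from differentiation to meiosis lost 5 of 18 (27.8%), with a differential region at 11 of the 18. Lin28a, an RNA-binding protein gene, lost 1338 bp without a differential region. Zglp1, a zinc finger gene of germ cells, lost 1001 bp, Elavl2, another RNA-binding protein gene, 977 bp, and Rhox13, an X-linked homeobox gene, 728 bp, each with a differential region.

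The remaining lists lost few. Genes of N6-methyladenosine, the RNA mark that the YTH domain of YTHDC2 binds, lost 0 of 13, and 9 of the 13 had a differential region. Rbm15b kept the smallest share of its control length, 48.9%, followed by Ythdc1 (72.9%), Cbll1 (76.5%) and Ythdf3 (76.7%). Repressors of meiotic genes lost 1 of 16 (6.25%), and 10 of the 16 had a differential region. The lost gene was Nanos2, which holds back meiosis in male germ cells. A Znhit1-CKO peak beyond 1 kb still covered 66.2% of its control peak of 2924 bp. Dmrt1 kept 50.1%, Uhrf1 61.4% and Cbx3 75.0%. Among repressors the median share of control length inside a Znhit1-CKO peak was 81.2%, and among N6-methyladenosine genes 84.9%. It was 40.9% for early prophase genes and 78.6% over all genes with a control peak at an end. The median control lengths of the 3 lists were 1691, 1448 and 1182.5 bp. Among all genes, 35.9% were lost at 205 to 1181 bp, 5.51% at 1182 to 1506 bp and 2.32% at 1507 to 1882 bp.

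**Figure D5:**
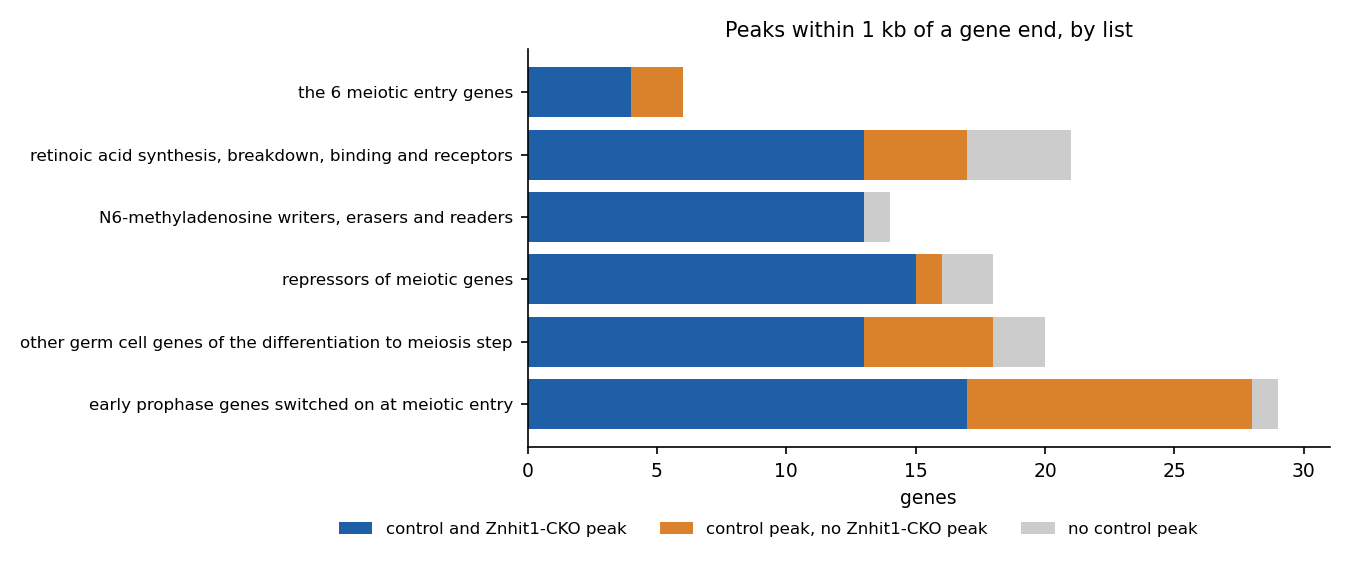
Number of genes in each list with a control and a Znhit1-CKO peak within 1 kb of an end (blue), with a control peak and no Znhit1-CKO peak (orange), and with no control peak (grey). Of the 6 meiotic entry genes 2 are orange, of the 29 early prophase genes 11, and of the 14 N6-methyladenosine genes 0.

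Marker genes of the cell types in the testis were counted in the same way, and they give places of H2A.Z and no levels of expression. The spermatocyte markers Sycp1, Sycp3 and Hormad1 are also early prophase genes of the lists above. The spermatogonia marker Kit is also among the other germ cell genes, so these counts in part repeat those above. Of markers with a control peak, those of spermatogonia lost 1 of 8, those of spermatocytes 4 of 8, those of Sertoli cells 2 of 6, and those of other somatic cells (Leydig, peritubular, endothelial, immune) 0 of 3. Over all protein-coding genes with a control peak at an end, 11.5% were lost. In the last list 7 of 10 markers had no control peak. In the same order, 5, 5, 4 and 1 of the markers with a control peak had a differential region, against 62.8% over all such genes. The part of cell composition in the values of the 6 genes was not tested.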

How the data were processed

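H2A.Z ChIP-seq libraries and inputs of control and Znhit1-CKO testes at postnatal day 14 were represented by 3 deposited lists, of control peaks (48752), Znhit1-CKO peaks (31156) and differential regions (24367). Each gives chromosome, start and end on mm10, with no score, p or sign. Per the submitters' processing notes, the authors used MACS2 2.2.4, Picard 2.20.7, BWA 0.7.17, cutadapt 2.5 and SAMtools 1.9. The differential list is labelled as an edgeR comparison of Znhit1-CKO against control. No source used here gives the thresholds or says whether replicates were pooled. The lists hold no read counts, so depth per library is unknown and no interval on signal can be given.

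Gene spans were those of RefSeq on GRCm38.p6, and transcription starts and strands came from its promoter table, which holds 5 of the 6 genes. Symbols were matched directly, and 1 list gene by synonym. Peaks overlapping a window of 1000 bp on either side of a gene end were taken as end peaks, with their whole width, and 1 bp of overlap counted as shared. Coordinates count from 1. No test was run. A planned look at promoter distances used the promoter table, and the start window was added after the data were seen.

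The members and lists were chosen with earlier results of these data known. All 6 members were named. From each pathway list up to 4 genes were named, first lost ones by control length, then kept ones by smallest shared length, and for each member the 2 genes most like it, leaving out predicted genes, olfactory receptors and genes that share a peak with it. The calls were tested on simulated data (2000 genes, 0 wrong calls), and overlaps were checked against bedtools 2.31.1 (0 of 48752 differed). The work used matplotlib 3.10.9, scipy 1.17.1, pandas 2.3.3, numpy 2.4.6 and Python 3.11.15.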

Additional observations from a re-analysis of the deposited data

How the results depend on the processing

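No paired analysis was possible because there is 1 deposited peak list per genotype, without values for single replicates, so no replicate could be left out either. The count of lost members (2) was 1 of 5 with peaks of at least 500 bp and 1 of 4 with start windows, where Stra8 has no control peak. It was 2 with windows of 500 bp or 2 kb. It was also 2 where lost meant that no Znhit1-CKO peak overlapped a control peak of the gene. Over all protein-coding genes with a control peak, 14.5% were lost with the width minimum and 9.68% at starts. The share was 12.2% with 500 bp windows, 11.4% with 2 kb and 11.0% where lost was defined by the absence of overlap. The count with a differential region (3) was 4 with 2 kb windows, where Dazl joins, and 2 with 500 bp windows, which leave out Ythdc2, and at starts. Over all those genes the share moved likewise at the ends, to 66.1% with 2 kb and 59.3% with 500 bp, and was 64.2% at starts. The shared control length (65.8%) was 64.6% with 500 bp windows, 54.1% with 2 kb, 59.7% with the width minimum and 63.5% at starts. By gene, it moved at Bhmg1 (74.1%) to 35.6% with the width minimum and 57.3% with 2 kb, and at Dazl (72.7%) to 94.0 and 41.4%. The lost repressor, Nanos2, left the count (0) with 500 bp windows, at starts and where lost was defined by the absence of overlap. Lost genes in the 5 lists together (21) numbered 18 to 21, and for single lists other than the repressors the counts moved by at most 2. No control peak lay inside a member's span under any of the alternatives. Depth and the authors' thresholds are unknown, so how far any peak lies from its threshold cannot be read from the lists.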
